A study of Mus musculus with 20 samples.

Results

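Mm062, Mm066 and Mm073 are 3 of the 120 mouse identifiers on a custom spotted liver array, the Sterolgene V1. They were selected on the measured difference between their TCPOBOP responses in mice lacking both CAR and PXR and in mice lacking CAR alone, in which they held the 3 highest places among the 82 identifiers tested. The files do not pair these identifiers with genes or sequences, so the members are described by identifier, with no gene role. For the same reason neither the deleted receptors nor liver marker genes could be checked in these libraries.

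CAR and PXR are nuclear receptors of liver cells that sense drugs, steroids and bile acids and switch on genes of detoxification, transport and lipid metabolism. TCPOBOP is a strong agonist of mouse CAR and the usual agent for activating it in mouse liver. The receptors share many of their target genes, so mice lacking one or both are used to ask which receptor a response needs. The Sterolgene array was built around genes of cholesterol homeostasis and of drug metabolism.

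All mice were male C57BL/6J aged 9 to 12 weeks and were either wild type (WT) or deficient in CAR (CARKO), PXR (PXRKO) or both receptors (CARPXRKO). Treated mice received 10 mg/kg TCPOBOP intraperitoneally and their liver RNA, taken 12 h later, carried Cy5. The Cy3 channel held RNA pooled from 6 livers of the same genotype, taken 12 h after the vehicle, 5% DMSO in corn oil. There were 6 WT, 6 CARKO, 4 PXRKO and 4 CARPXRKO arrays, all with the same dye orientation per the labels. The labels do not say how or in which cells the receptor genes were disrupted, nor whether each array held its own animal, so p-values measure the spread between these arrays. Whether 1 pool served all arrays of a genotype is not stated in the labels either. The pool counted as 1 control sample, and the spread between vehicle-treated animals is not part of any error given here. In whole liver, fewer cells of a type and less RNA per cell cannot be told apart.

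Some arrays stood apart from the rest. Before normalization, the median log2 Cy5/Cy3 over mouse identifiers lay between −2.03 and −0.050 among WT arrays, with WT 5 and WT 6 uppermost. It reached 0.29 among CARKO arrays, lay between −0.26 and 1.42 for PXRKO, and was 0.42 or more on each CARPXRKO array. The Cy3 signal exceeded background by more than 2 background SDs for 74 to 89 identifiers on WT arrays and 65 to 94 on CARKO arrays. For PXRKO this number was 50 to 69, and for CARPXRKO 35 to 73. On WT 3, WT 5, CARKO 3 and CARPXRKO 3 the labels' treatment text for the Cy5 channel is that of the vehicle pool, and CARPXRKO 3 also has its pool labelled as deficient in PXR alone. Within each genotype, odd-numbered arrays lay in one position of the slide (A) and even-numbered arrays in another (B). The part of these differences in the results was not tested beyond the values given with each result.

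Each member had 3 spots per array, and none of their 180 spots was flagged or saturated. On CARKO 3, CARKO 4 and CARPXRKO 1 no spot of any kind was flagged, against 94 to 247 on the other arrays. Whether flagging was applied on those 3 arrays is not known. The Cy5 signal was more than 2 background SDs above background on 170 of the members' 180 spots and the Cy3 signal on 160. The SD between the spots of a member had a median of 0.098 log2 units for Mm062, 0.060 for Mm066 and 0.12 for Mm073, against 0.108 over all identifiers tested, and reached 0.39 for Mm062 on WT 4. Background-subtracted intensities spanned 641 to 6748 in Cy5 and 607 to 7534 in Cy3 for Mm062, and 495 to 3526 and 321 to 5377 for Mm066. Mm073 was dimmer, at 79.3 to 1092 in Cy5 and 215 to 1794 in Cy3.

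In WT livers the mean log2 ratio of treated liver to vehicle pool was below 0 for all 3 members. Values are log2 Cy5/Cy3 after loess normalization, in which 0 means the typical ratio on that array at that brightness. The Mm062 ratio ran from −0.75 to −0.25 over 6 WT arrays with a median of −0.53, and every array was below 0, as for 14.6% of identifiers. Mm066 ran from −1.08 to 0.015 with a median of −0.39. It was below 0 on 5 of 6 arrays and varied most among the 3, with WT 6 and WT 4 lowest. Mm073 ran from −0.62 to 0.0038 with a median of −0.15, again below 0 on 5 of 6 arrays.

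Tested against 0 in limma, with p-values adjusted over the 82 identifiers, Mm062 fell by 0.51 ± 0.092 on the log2 scale (SE, n = 6, adjusted p = 2.14e-04). This mean corresponds to a pool signal 1.42 times that of the treated liver after normalization. All arrays had the same dye orientation. In any test against 0 here, a dye preference of an identifier's own spots therefore cannot be told apart from a response. Mm066 fell by 0.45 ± 0.11 (SE, n = 6, adjusted p = 0.00274) and Mm073 fell by 0.23 ± 0.090 (SE, n = 6, adjusted p = 0.0461). All 3 members passed in this direction, against 14.6% of all identifiers tested. From the lowest upward, Mm062 was the third of the 82, Mm066 the fifth and Mm073 the fourteenth. In this fit the SEs, intervals and p-values use a spread pooled over the arrays of all genotypes, not of the tested genotype alone. The SD of Mm066 was 0.43 among WT arrays, against 0.21 in CARKO, 0.055 in PXRKO and 0.15 in CARPXRKO. The SE of 0.11 given for Mm066 therefore rests on a smaller spread than that of its WT arrays.

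The WT falls differed in size between slide positions. On the 3 arrays in position A they were −0.35, −0.25 and −0.13 for Mm062, Mm066 and Mm073, and none passed (limma, adjusted p = 0.0916, 0.230 and 0.495). On the 3 in position B they were −0.66, −0.64 and −0.34 (limma, adjusted p = 0.00807, 0.0163 and 0.0852). With position as a block all 3 passed (limma, adjusted p = 2.50e-04, 0.00171 and 0.0382). In a fit of the WT arrays alone, which takes no spread from the other genotypes, the Mm066 call ended (limma, adjusted p = 0.0579). The Mm073 call also ended without WT 1, WT 3, WT 4 or WT 6 and under several other settings, and its Cy5 signal was above background on 4 of 6 WT arrays, not on WT 3 and WT 4. Without WT 5 and WT 6, an alternative added after seeing the data, Mm062 was at −0.51 and Mm066 at −0.41 (limma, adjusted p = 0.00244 and 0.00936) while Mm073 was at −0.23 and no longer passed (adjusted p = 0.134).

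In PXRKO livers none of the 3 members passed the test against 0. Mm062 was at −0.41, −0.06, −0.32 and −0.26 on PXRKO 1 to 4, below 0 on every array. Mm066 was at 0.15, 0.18, 0.09 and 0.06, above 0 on every array and the tightest of the 12 combinations of member and genotype (SD 0.055). Mm073 was at 0.06, 0.19, −0.05 and 0.11, on both sides of 0.

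The PXRKO mean was −0.26 for Mm062, with a 95% interval of −0.50 to −0.026 and adjusted p = 0.101 (limma, n = 4). It was 0.12 for Mm066 (−0.16 to 0.41, adjusted p = 0.576) and 0.077 for Mm073 (−0.15 to 0.31, adjusted p = 0.658). The background in this comparison was 6.10% of identifiers called lower and 12.2% called higher. Of the 3 members only Mm062 reached an unadjusted p under 0.05 (0.0315 in limma), as did 30 of the 82 identifiers. In positions A and B the values were −0.36 and −0.16 for Mm062, 0.12 and 0.12 for Mm066, and 0.0062 and 0.15 for Mm073, and none passed with position as a block.

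The WT and PXRKO responses were compared directly, since the fall in WT and its absence from the calls in PXRKO do not by themselves show a difference. Mm066 was higher in PXRKO by 0.57 ± 0.17 on the log2 scale (SE, 95% interval 0.20 to 0.94), the third largest such difference of the 82. Its PXRKO arrays all lay above its WT arrays, by a gap of 0.047, a pattern found for 2.44% of identifiers. It did not pass (limma, adjusted p = 0.0669, unadjusted p = 0.00408). Mm073 was higher by 0.31 ± 0.14 (0.012 to 0.61, adjusted p = 0.203) and Mm062 by 0.24 ± 0.15 (−0.061 to 0.55, adjusted p = 0.334), and for both the arrays of the 2 genotypes overlapped.

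Thus 0 of 3 members passed in this difference in limma, with 2 at an unadjusted p under 0.05. Over all identifiers 1.22% were called higher and 2.44% lower, and 19 of 82 had an unadjusted p under 0.05. Mm066 did pass under 5 of the other settings, among them plain background subtraction (0.65, adjusted p = 0.0408), and without WT 5 and WT 6 (0.53, adjusted p = 0.0474). The differences in positions A and B were 0.37 and 0.77 for Mm066, 0.14 and 0.48 for Mm073, and −0.011 and 0.50 for Mm062. With position as a block they did not pass (limma, adjusted p = 0.0537, 0.194 and 0.332).

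**Figure D1:**
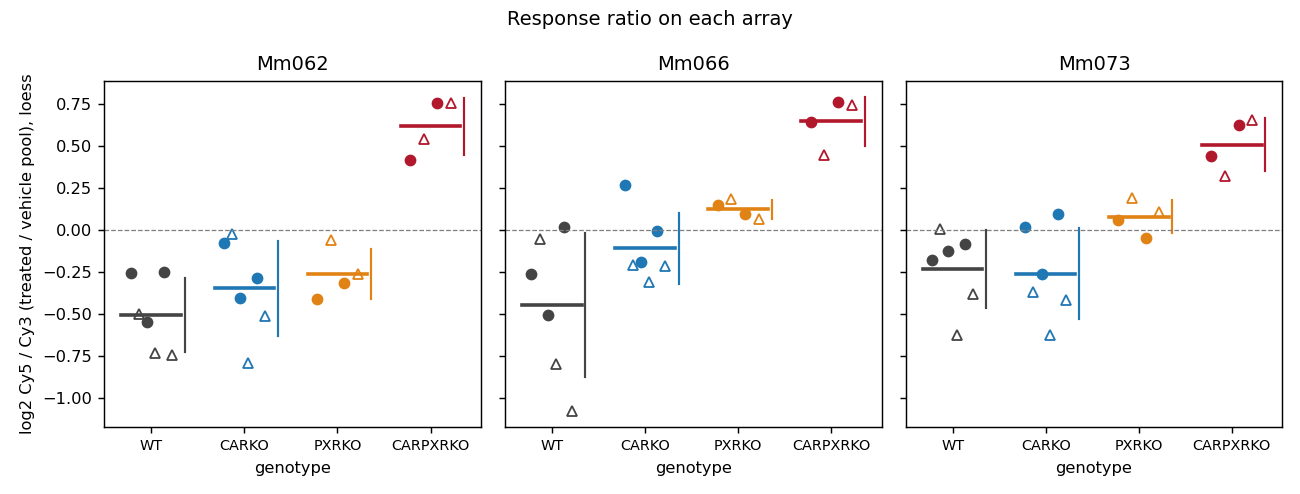
Loess-normalized log2 Cy5/Cy3 (treated liver over vehicle pool, y axis) of Mm062, Mm066 and Mm073 on each of the 20 arrays, by genotype (x axis); filled circles are slide position A, open triangles position B, horizontal lines the means and vertical bars ± 1 SD. The 4 CARPXRKO arrays lie above all other arrays for each member, and the WT arrays of Mm062 all lie below 0.

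The remaining responses come from the CARKO and CARPXRKO arrays, whose difference chose the members, and are given as a description with no test. In CARKO, Mm062 ran from −0.79 to −0.025 over 6 arrays with a median of −0.34, below 0 on every array, as were 2.44% of identifiers. Mm066 ran from −0.31 to 0.27, below 0 on 5 of 6 arrays, with a mean of −0.11 ± 0.21 (SD, n = 6). Mm073 ran from −0.63 to 0.094 and was above 0 on CARKO 1 and CARKO 5, with a mean of −0.26 ± 0.27 (SD, n = 6).

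In CARPXRKO the loess-normalized ratio was above 0 on every array for all 3 members. Mm062 was at 0.41, 0.54, 0.75 and 0.76 on CARPXRKO 1 to 4. Mm066 was at 0.64, 0.44, 0.76 and 0.74. Mm073 was at 0.44, 0.32, 0.62 and 0.65. CARPXRKO 3 and CARPXRKO 4 were the higher pair for each member. The means were 0.62 ± 0.17, 0.65 ± 0.15 and 0.51 ± 0.16 (SD, n = 4), which correspond to 1.53, 1.57 and 1.42 times the pool signal after normalization. The Cy3 signal of Mm073 was above background on CARPXRKO 4 alone. Among the 82 identifiers Mm066 had the highest CARPXRKO response, Mm062 the second and Mm073 the fourth, and 26.8% were above 0 on every CARPXRKO array.

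Set against CARKO, the CARPXRKO response was higher by 0.97 log2 units for Mm062, 0.77 for Mm073 and 0.76 for Mm066, and the median over all identifiers was 0.023. The identifier just outside the 3 was Mm132 at 0.73, so the edge of the set is not a break in the values. The CARPXRKO arrays of each member lay above all its CARKO arrays, with gaps of 0.44 for Mm062, 0.18 for Mm066 and 0.22 for Mm073. Such separation held for 11.0% of identifiers, and nothing is read from it here because this difference made the choice. In slide positions A and B the differences were 0.84 and 1.09 for Mm062, 0.68 and 0.84 for Mm066, and 0.58 and 0.96 for Mm073. Without the 4 arrays with conflicting protocol text they were 0.91, 0.70 and 0.73 for Mm062, Mm066 and Mm073.

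The CARPXRKO arrays also lay above all WT and all PXRKO arrays for each member. These comparisons share the CARPXRKO arrays with the difference that chose the members. CARPXRKO exceeded WT by 1.12 for Mm062, 1.10 for Mm066 and 0.74 for Mm073, with all arrays above for 14.6% of identifiers. CARPXRKO exceeded PXRKO by 0.88, 0.53 and 0.43 for Mm062, Mm066 and Mm073, with all arrays above for 15.9% of identifiers. The order of the mean responses was WT, CARKO, PXRKO, CARPXRKO for Mm062 and Mm066, and CARKO, WT, PXRKO, CARPXRKO for Mm073. Apart from CARPXRKO, neighbours in these orders overlapped between arrays for all 3 members.

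The members were not alike in each genotype. Mm073 had the highest ratio of the 3 on 5 of 6 WT arrays. Mm062 had the lowest on 5 of 6 CARKO and on 4 of 4 PXRKO arrays, whereas Mm073 had the lowest on 3 of 4 CARPXRKO arrays, on 2 of which its Cy3 signal was not above background. In PXRKO, Mm062 was below 0 and Mm066 above 0 on every array, and 11.0% and 20.7% of all identifiers were so placed.

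The ratio can change through either channel, so the levels in Cy5 (treated) and Cy3 (pool) were taken apart after loess and between-array scaling of the average brightness. Between CARKO and CARPXRKO the Mm062 Cy3 level was lower by more than its Cy5 level was higher. Its Cy3 level was 11.74 ± 0.43 in CARKO and 11.04 ± 0.31 in CARPXRKO (log2, SD), a CARPXRKO minus CARKO difference of −0.70. Its Cy5 level was 11.39 ± 0.51 and 11.66 ± 0.40, a difference of 0.26.

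Mm066 showed the same split, with a CARPXRKO minus CARKO level difference of −0.56 in Cy3 and 0.20 in Cy5. For Mm073 the differences were −0.33 in Cy3 and 0.44 in Cy5, but its Cy3 signal was not above background on CARPXRKO 1 to 3, so the sizes of its 2 parts cannot be ordered. The medians of these differences over all identifiers were 0.048 in Cy3 and −0.0088 in Cy5. In each channel the CARKO and CARPXRKO levels of all 3 members overlapped between arrays, so the separation seen in the ratios was not seen in either level alone. With the pool counted as 1 sample per genotype, a Cy3 difference compares pools. The labels do not say whether each genotype had a single pool.

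The mean levels of all 3 members were lowest in PXRKO in both channels. For Mm066 the Cy3 level was 9.57 ± 0.30 in PXRKO and 11.12 ± 0.11 in WT (log2, SD), with a highest PXRKO value of 9.94 and a lowest WT value of 11.02. All PXRKO arrays lay below all WT arrays in Cy3 for Mm062 too, though not for Mm073, and for 13.4% of identifiers. The Cy5 level of Mm066 was 9.70 ± 0.32 in PXRKO and 10.67 ± 0.42 in WT. The PXRKO minus WT level differences were −1.54 in Cy3 and −0.97 in Cy5 for Mm066, −0.88 and −0.64 for Mm062, and −0.65 and −0.34 for Mm073. The medians over all identifiers were −0.13 in each channel. For each member the Cy3 level was further below WT than the Cy5 level. This order restates the positive PXRKO minus WT difference in ratio and adds nothing to it. These level differences were not tested, because levels of different arrays also carry each array's labelling and brightness.

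**Figure D2:**
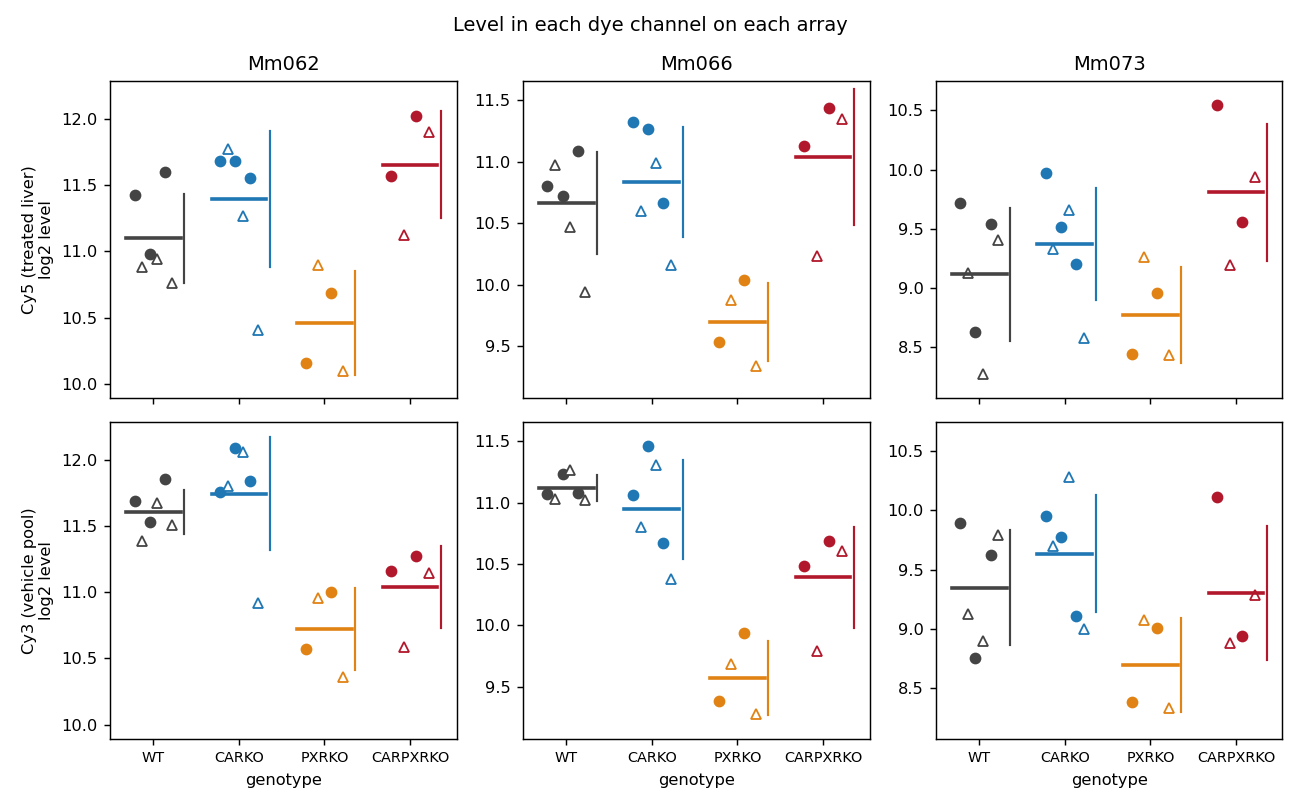
Log2 level of Mm062, Mm066 and Mm073 in Cy5 (treated liver, upper row) and Cy3 (vehicle pool, lower row) on each array, by genotype (x axis), after loess and between-array scaling; filled circles are slide position A, open triangles position B, lines the means and bars ± 1 SD. Mm066 in Cy3 is at 9.94 or below on every PXRKO array and at 11.02 or above on every WT array. All PXRKO arrays lay below all WT arrays in Cy3 for 13.4% of identifiers.

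Ranks within a channel need no curve between the dyes. Each member was ranked by background-subtracted intensity among the 120 mouse identifiers of its array, with rank 1 the brightest. Mm062 ranked 13 to 21 in the WT pool, 19 to 22 in the CARKO pool, 26 to 29 in the PXRKO pool and 23 to 30 in the CARPXRKO pool. In Cy5 it ranked 21 to 35, 22 to 30, 27 to 36 and 18 to 27 in the same genotypes. The CARKO and CARPXRKO ranks of Mm062 overlapped in Cy5. In Cy3 the CARPXRKO ranks were all the dimmer, as for 14.6% of identifiers, and nothing is read from this since these arrays chose the member.

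In the pools Mm066 ranked 19 to 28 for WT, 26 to 32 for CARKO, 41 to 43 for PXRKO and 32 to 43 for CARPXRKO. In Cy5 it ranked 26 to 41, 26 to 36, 39 to 41 and 24 to 35. In Cy3 the PXRKO ranks were all dimmer than the WT ranks for Mm062, Mm066 and Mm073, as for 23.2% of identifiers. They were all dimmer than the CARKO ranks for Mm062 and Mm066 but not Mm073, as for 19.5%. In Cy5 the PXRKO ranks of Mm066, unlike those of Mm062 and Mm073, were all dimmer than the CARKO ranks, as for 14.6% of identifiers. They met the WT ranks of Mm066 only through WT 6, at 41. Mm073 ranked 41 to 51, 44 to 54, 54 to 63 and 50 to 67 in Cy3, and 45 to 74, 47 to 63.5, 51 to 63 and 42 to 49 in Cy5.

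On all 4 CARPXRKO arrays each of the 3 members ranked higher in Cy5 than in Cy3, as did 17.1% of identifiers. Some of these Cy3 ranks are of signals not above background, namely all 3 members on CARPXRKO 1 and Mm073 on CARPXRKO 2 and 3. In WT, Mm062 and Mm066 ranked lower in Cy5 than in Cy3 on 6 of 6 arrays and Mm073 on 5 of 6, and 24.4% of identifiers ranked lower on all 6. In CARKO each member ranked lower in Cy5 on 5 of 6 arrays. In PXRKO, Mm066 ranked higher in Cy5 on 3 of 4 arrays with 1 equal, whereas Mm062 ranked lower on 3 of 4 with 1 equal and Mm073 was split evenly. A rank depends on all other identifiers of that channel as well as on the member.

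The depth of the pool signal limits the CARPXRKO ratios. In Cy3, Mm062 and Mm066 were above background on 3 of 4 CARPXRKO arrays, not on CARPXRKO 1, and Mm073 was above background on CARPXRKO 4 alone. In Cy3, Mm073 was also above background on 2 of 4 PXRKO arrays. Over the arrays with both channels above background, the CARPXRKO mean was 0.68 for Mm062 (n = 3) and 0.65 for Mm066 (n = 3), and the single value for Mm073 was 0.65. The size of the Mm073 ratio on CARPXRKO 1 to 3 therefore rests on a Cy3 signal near background.

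The members followed each other across arrays. Over the 20 arrays the ratios of Mm066 and Mm073 had a Pearson correlation of 0.88, those of Mm062 and Mm073 of 0.87, and those of Mm062 and Mm066 of 0.87. Part of this comes with the choice of members, which fixed that they share a difference between CARKO and CARPXRKO. With each genotype's mean removed, the correlations were 0.75, 0.67 and 0.65 in the same order. For comparison, the median correlation of a member with the 81 other identifiers was 0.026 for Mm062, 0.051 for Mm066 and 0.0056 for Mm073, and with genotype means removed −0.031, 0.017 and 0.061. These are descriptions over arrays that share their normalization and, within a genotype, their labelled condition and possibly their pool.

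The identifiers most like Mm066 and Mm073 were the other members. For Mm062 the first was Mm065, with a Pearson correlation of 0.87 and 0.74 after removal of genotype means. Mm065 had mean ratios of −0.23 in WT, −0.18 in CARKO, 0.021 in PXRKO and 0.42 in CARPXRKO, and came sixth in the CARPXRKO minus CARKO difference with 0.60. At the other end, the ratios of Mm139 ran most opposite to Mm062 (−0.79), those of Mm007 to Mm066 (−0.73) and those of Mm005 to Mm073 (−0.78).

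All spots of the 3 members lay in the first of the array's print blocks. The median correlation with the 38 other identifiers of that block was 0.17, 0.11 and 0.077 for Mm062, Mm066 and Mm073. With the 41 identifiers of the second block it was −0.046, −0.046 and −0.082. Within the block, the spots of Mm062 and Mm066 lay in the same 3 columns, 2 rows apart. The part of spot position in the likeness of the members was not tested. With print-tip loess, which fits each block by itself, the CARPXRKO minus CARKO differences were 0.91, 0.73 and 0.66.

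**Figure D3:**
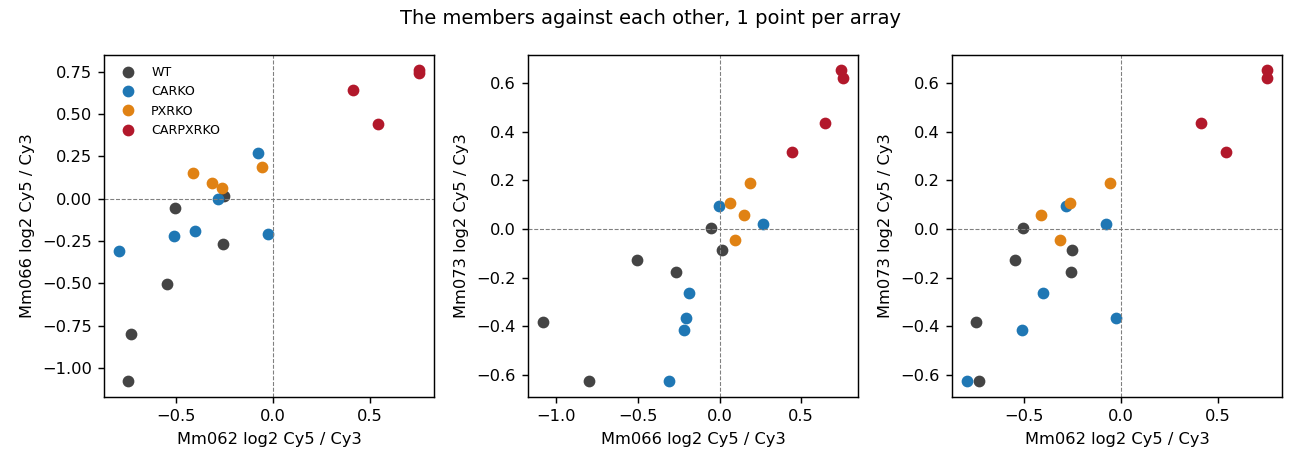
Loess-normalized log2 Cy5/Cy3 of the members against each other, 1 point for each of the 20 arrays, coloured by genotype. The CARPXRKO arrays lie in the upper right of each panel, and the WT and CARKO arrays spread along the same direction below them (Pearson correlations 0.87, 0.88 and 0.87 from left to right).

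In the authors' deposited table of log2 ratios Mm062 was at 0.33, 0.41, 0.42 and 0.62 on CARPXRKO 1 to 4, above its CARKO values of −1.01 to 0.049. The CARPXRKO values of Mm062 in the authors' deposited table were not separate from the other genotypes, with 0.80 on WT 5 and −0.36 to 0.41 in PXRKO. For Mm073 the CARPXRKO values in the authors' deposited table were −0.36, −0.15, −0.051 and 0.091, within its CARKO range of −0.68 to 0.16. For Mm066 the CARPXRKO values there were 0.10 to 0.47 and the CARKO values −0.74 to 0.34, which overlap. The centring of that table is unknown. Its column medians ran from −0.61 to −0.088 in CARPXRKO, −0.52 to 0.039 in CARKO and −1.02 to 0.65 in WT. With each column's median subtracted, Mm062 ran from 0.42 to 1.07 in CARPXRKO. Its highest values were then 0.15 in WT, 0.053 in CARKO and 0.25 in PXRKO. Mm066 and Mm073 still overlapped, with lowest CARPXRKO values of 0.28 and −0.27 and highest CARKO values of 0.35 and 0.18. The share of identifiers placed like Mm062 was not counted. Nothing is read from the place of Mm062 here, since the CARPXRKO minus CARKO difference chose the member.

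**Figure D4:**
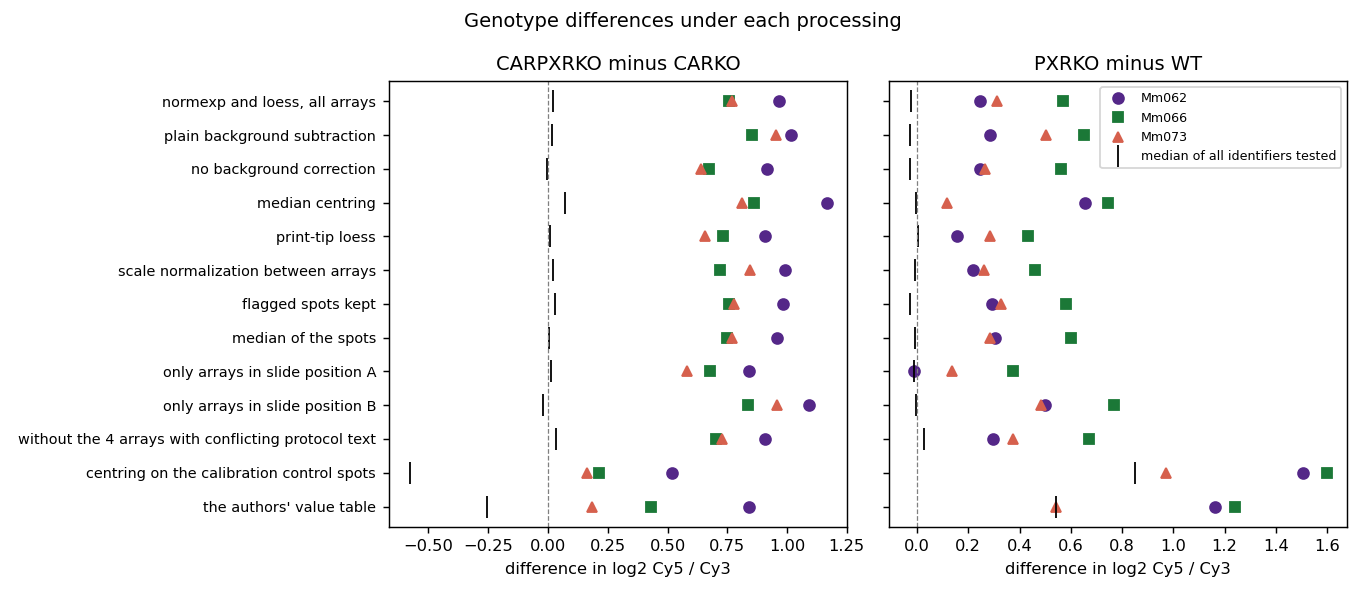
CARPXRKO minus CARKO (left) and PXRKO minus WT (right) differences in log2 Cy5/Cy3 (x axis) of Mm062, Mm066 and Mm073 under each processing (y axis); black ticks are the median over all identifiers tested. Centring on control spots and the authors' deposited table move the members and the median in the same direction, though by unlike amounts. The members stay to the right of the tick on the left panel. On the right panel Mm073 is at the tick in the authors' deposited table, at 0.00083 relative to the median.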

How the data were processed

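Per the file headers, the deposited scanner tables hold each spot's foreground and background intensity in both dyes, the SD of the background and the percent of saturated pixels; the flagging rule is not given in the sources used here. A table of the authors holds log2 ratios per identifier, with unknown centring, and served as an alternative. Here the 578 spots per array (218 of them controls) were corrected with normexp (offset 50) and normalized by loess in limma 3.58.1 (R 4.3.3), giving weight 0 to control spots and to flagged spots. Unflagged spots of an identifier, up to 3, were averaged. The 82 identifiers measured on 3 or more arrays of each genotype were fitted in 1 model with a mean per genotype over 20 arrays (lmFit, eBayes), with Benjamini-Hochberg adjustment at 0.05. The fit was tested on simulated data. Levels per channel were scaled with Aquantile. The members and lists were chosen with earlier results of these data known. Besides the members, identifiers were named if among the 2 most correlated with a member (over at least 15 arrays) or next in rank to the set; Mm139, Mm007 and Mm005 were named after their values were seen. Gene lists could not be used without gene names. Precision is limited by the number of arrays.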

Additional observations from a re-analysis of the deposited data

Results flagged for a closer look

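After loess normalization, Mm062 lay on opposite sides of 0 in CARPXRKO and in each other genotype, on every array. Of all identifiers tested, 26.8% were above 0 on every CARPXRKO array. Below 0 on every array were 14.6% in WT, 2.44% in CARKO and 11.0% in PXRKO, each genotype taken singly. The place of 0 depends on the processing. The Mm062 mean in PXRKO was −0.0066 with median centring and 0.46 when centred on calibration spots. Calibration spots also put the PXRKO median over all identifiers at 0.46. The CARPXRKO response exceeded that of CARKO by 0.97, that of PXRKO by 0.88 and that of WT by 1.12 on the log2 scale. These differences were not tested, since the first of them chose the member and the others share its CARPXRKO arrays. None of the 12 combinations of member and genotype held an array that stood out by Dixon's criterion: the widest gap was 0.637 of the range, for Mm066 in CARPXRKO, below the critical value for 4 arrays.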

How the results depend on the processing

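The WT falls of Mm062 and Mm066 passed under 17 and 16 of 18 alternatives and without any 1 array (−0.56 to −0.46 and −0.54 to −0.32). Exceptions were position A (−0.35 and −0.25) and, for Mm066, a fit of the WT arrays alone (−0.45, limma adjusted p = 0.0579). The Mm073 fall in WT kept its direction under all 18 but passed under 8. It was −0.23 with median centring, −0.19 with scaling between arrays, −0.23 with the median of the spots, −0.61 in the authors' deposited table and −0.30 without the 4 arrays of conflicting text. It was −0.13 in position A, −0.34 in position B, and −0.23 with 105 identifiers tested, with WT arrays alone and without WT 5 and WT 6. Leaving out 1 WT array gave −0.28 to −0.15. In PXRKO, where no member passed, Mm073 turned to −0.12 with median centring and −0.071 in the authors' deposited table. Mm062 in PXRKO went to −0.0066 with median centring. It turned to 0.46 when centred on calibration spots and 0.16 in the authors' deposited table. Relative to the medians of all identifiers there, 0.46 and 0.070, Mm062 was at −0.0040 and 0.090. The PXRKO minus WT difference of Mm066 passed at 0.65 with plain subtraction, 0.74 with median centring and 1.60 with calibration spots. It also passed at 0.57 with trended robust eBayes and 0.53 without WT 5 and WT 6. Without 1 array it ran from 0.44 to 0.66, passing without WT 2 or WT 5. With scaling between arrays (0.46), in positions A (0.37) and B (0.77) and with the WT and PXRKO arrays alone (0.57), this difference did not pass. That of Mm062 passed at 0.65 with median centring and 1.51 with calibration spots and was −0.011 in position A; that of Mm073 passed at 0.97 with calibration spots. Calibration spots moved the median of all identifiers to 0.85 in this difference, and relative to it the members were at 0.66, 0.75 and 0.12. CARPXRKO minus CARKO was 0.52, 0.21 and 0.16 with calibration spots (1.10, 0.79 and 0.74 relative to a median of −0.58). In the authors' deposited table it was 0.84, 0.43 and 0.18 (1.10, 0.69 and 0.44 relative to −0.26), where Mm073 in CARPXRKO was at −0.12. In each such case the cause was not tested.

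Identifiers called in PXRKO minus WT were 1 higher and 2 lower, against 6 and 9 with median centring, 30 and 0 with calibration spots and 0 and 0 in the authors' deposited table. In WT, 20 higher and 12 lower became 5 and 21 with calibration spots. Deviations from genotype means correlated above 0.1 in 10 of 24 same-numbered pairs (−0.50 to 0.31). Of the PXRKO arrays, 1 of 4 correlated best with its own number in WT. The labels' numbers were not taken as pairs, though so few arrays cannot show whether they were paired. With the replicate block the WT values were −0.51, −0.45 and −0.23 (limma adjusted p = 4.20e-04, 0.00176 and 0.0464) and PXRKO minus WT 0.23, 0.55 and 0.33, with no call changed.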
